A study of Mus musculus with 4 samples.

Results

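The proteasome is the protease that degrades ubiquitin-tagged proteins in the cytosol and nucleus, and its constitutive subunits, activators and assembly factors were followed here in mouse macrophages given necrotic fat. Members were the rows of the deposited expression table whose symbol began with Psm, a letter from a to g and a digit, leaving out the inducible subunits Psmb8, Psmb9 and Psmb10, which served for comparison. This gave 46 of the 17013 genes listed, and all 46 passed a filter of 0.5 CPM (reads scaled to library size) in 2 or more of the 4 libraries, as did 12470 genes in all. They were 14 subunits of the core particle, 17 of the regulatory particle (9 base, 8 lid), the PA28 activators Psme1 and Psme2, 3 other regulators, 7 assembly chaperones, and 3 further genes that the name rule took in (Psma8, Psme2b and Psmc3ip).

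Wild-type (WT) bone marrow-derived macrophages from mice were grown on culture inserts with artificial necrotic bone fluid (aNBF), which every library shared, so no library was free of it. The Con group (2 libraries) received control medium with little fat and the Fat group (2 libraries) received fat-rich medium. Both were given for 24 h, as a model of fat uptake in dead bone. Both media were made from mouse abdominal fat that had been digested, frozen and thawed. After centrifugation, the middle layer gave the control medium and the top layer the fat-rich medium. Con thus also received material from necrotic fat tissue. Poly(A) RNA was sequenced, and the libraries held 33573852 and 37881292 reads in Con and 37534565 and 40785872 in Fat, so that 1 read was worth 0.0244 to 0.0295 CPM. The labels do not say whether the 2 libraries of a group came from separate animals or cultures, so p-values measure only the spread between these samples.

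The core particle is a barrel of alpha rings, which gate entry, around beta rings, which hold the proteolytic sites on Psmb5, Psmb6 and Psmb7. The regulatory particle caps it: its base of ATPases unfolds substrates and its lid removes ubiquitin. The PA28 cap, built of Psme1 and Psme2, opens the core without ATP or ubiquitin and is induced by interferon gamma together with Psmb8, Psmb9 and Psmb10, which replace the constitutive catalytic subunits in the immunoproteasome. In macrophages these inducible forms take part in making peptides for MHC class I presentation.

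The upstream sequences of Psme1 and Psme2 are shown because these were the members called between the media. RefSeq promoter windows of build GRCm38.p6, from 250 bases before to 50 after the annotated start, were found for 38 of the 46 members. The files were made on GRCm39, so these coordinates only locate the sequences. Both of the following are the 250 bases before the start, with capitals marking the GC box GGGCGG on either strand. Psme1 lies on the plus strand at chr14:55578244-55578493 and Psme2 on the minus strand at chr14:55591102-55591351. Psme2 has a further annotated start downstream, not shown. Counted from that start, the GC box marked here is at -147, and another, beyond the bases shown, is at -53.
Psme1: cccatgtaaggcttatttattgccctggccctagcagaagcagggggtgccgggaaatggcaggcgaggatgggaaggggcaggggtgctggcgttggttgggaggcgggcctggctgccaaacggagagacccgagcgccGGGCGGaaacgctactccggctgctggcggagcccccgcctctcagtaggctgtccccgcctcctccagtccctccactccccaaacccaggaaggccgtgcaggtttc
Psme2: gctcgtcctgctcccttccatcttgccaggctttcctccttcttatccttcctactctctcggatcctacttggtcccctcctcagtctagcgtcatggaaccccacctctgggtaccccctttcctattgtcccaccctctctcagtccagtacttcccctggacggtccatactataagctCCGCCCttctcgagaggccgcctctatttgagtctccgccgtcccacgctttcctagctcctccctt

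The GC box was in a window of 22 of the 38 members (57.9%), against 38.2% of all 27025 genes with a promoter window. Other motifs were searched on both strands, namely the interferon-stimulated response element as GAAA followed by any 2 bases and GAAA again, the gamma-activated site as TTCNNNGAA and the antioxidant response element as TGACNNNGC. The first was found in 5 members (Psmb3, Psmd4, Psmd9, Psme1 and Psmg4), or 13.2%, and in 3.99% of all genes with a window. The gamma-activated site was in 2 members (Psmd2 and Psmg1), or 5.26%, and in 9.55% of all genes with a window. The antioxidant element was in 6 members (Psmb5, Psmb6, Psmc6, Psmd12, Psmd9 and Psme4) and 12.4% of all windows. The only overlap between different motifs was in Psmd9, between the antioxidant element and a GC box. The interferon element was in none of the 3 inducible genes' windows, and Psmb8 held a gamma-activated site.

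Short stretches of 30 bases are shown for the activator Psme1 and for subunits that were not called, with capitals marking the match. They come from chr14:55578493-55578522 (Psme1, plus strand, across the start), chr11:97703261-97703290 (Psmb3, plus), chr3:95042675-95042704 (Psmd4, minus), chr14:54618024-54618053 (Psmb5, minus) and chr11:70525337-70525366 (Psmb6, plus). The first 3 hold the interferon element read on the opposite strand, and the other 2 the antioxidant element.
Psme1: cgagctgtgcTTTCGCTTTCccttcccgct
Psmb3: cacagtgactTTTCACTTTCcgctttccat
Psmd4: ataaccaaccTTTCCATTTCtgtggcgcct
Psmb5: acgtgaagttgTGACGTCGCggcgttgcca
Psmb6: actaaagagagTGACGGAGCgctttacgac
A match is a match of letters and was not tested as a binding site.

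To ask whether fat-rich medium was accompanied by a different level of proteasome transcripts, limma was fitted to log2(CPM + 0.1) of all 12470 genes. Tests were two-sided, and p-values were adjusted over all genes by Benjamini and Hochberg. A gene was called at an adjusted p under 0.05, and fold changes are on that log2 scale. Of the 46 members, 2 were called (4.35%), both lower in Fat, namely Psme1 and Psme2, and 0 were called higher. Of all genes tested, 9.0% were called, 5.0% lower and 3.99% higher. The other 44 members did not pass, and at an unadjusted p under 0.05 there were 8 members (2 higher, 6 lower), against 24.1% of all genes. On reads recovered from the CPM, edgeR's quasi-likelihood test called 2 members and 9.13% of all genes, its exact test 2 members and 13.2% of all genes, and DESeq2 2 members and 8.43% of all genes. The median log2 fold change of the members was -0.0011, against 0.01 for all genes tested. The libraries of the 2 groups did not overlap for 23 of the 46 members, 9 higher and 14 lower in Fat, against 55.6% of all genes. An absolute log2 fold change under 0.2 was found for 40 members (87.0%) and for 69.3% of all genes tested. The standard error (SE) reached 0.94 among all genes and 0.21 among members. These shares were therefore not matched for level or spread.

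**Figure D1:**
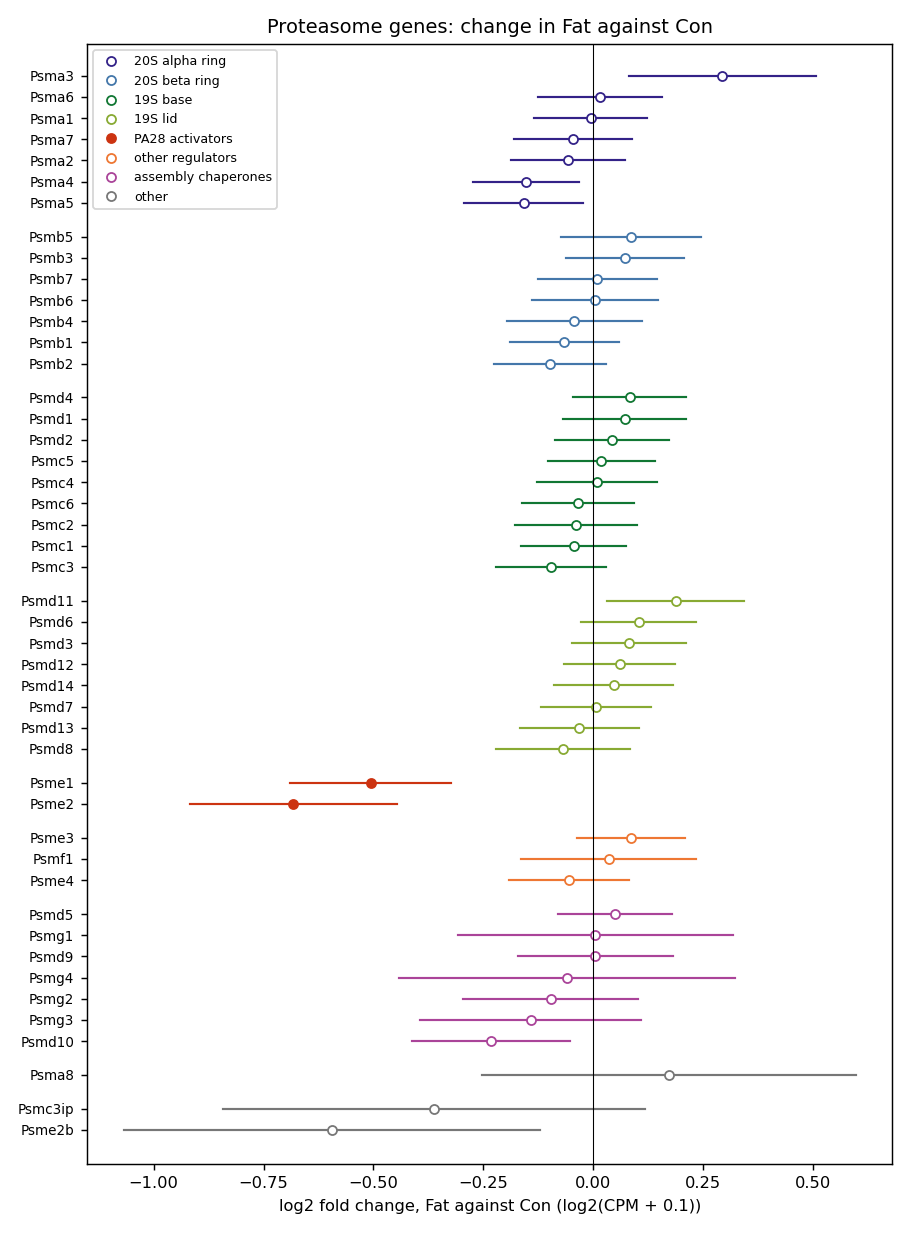
Log2 fold change of Fat against Con (x axis, on log2(CPM + 0.1)) for the 46 members, grouped by role, with 95% confidence intervals from limma as bars. Filled points mark the 2 genes called at an adjusted p under 0.05, Psme1 at -0.51 and Psme2 at -0.68, and open points the 44 not called.

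Psme1 and Psme2 encode the alpha and beta chains of the PA28 ring. Psme1 was at 204.1 and 199.97 CPM in Con and at 154.0 and 131.3 CPM in Fat. Both Fat libraries were below both Con libraries. Its mean of 202.0 ± 2.92 CPM (SD, n = 2) in Con fell by 29.4% to 142.6 ± 16.0 CPM (SD, n = 2), and the log2 fold change was -0.51 (SE 0.08, 95% interval -0.69 to -0.32, limma adjusted p = 0.0113). Psme2 was at 167.8 and 151.5 CPM in Con and at 110.3 and 89.5 CPM in Fat, again with no overlap and with the lowest value in Fat replicate 2. Its mean of 159.7 ± 11.5 CPM (SD, n = 2) in Con fell by 37.4% to 99.9 ± 14.7 CPM (SD, n = 2), and the log2 fold change was -0.68 (SE 0.10, 95% interval -0.92 to -0.45, limma adjusted p = 0.00941). Each was called in 13 of 14 alternative analyses, with log2 fold changes of -0.62 to -0.39 for Psme1 and -0.83 to -0.53 for Psme2. The exception for both was limma without a trend of variance on mean level, with adjusted p of 0.109 and 0.106, where 0.249% of all genes (31) were called. In bulk RNA, fewer cells of a type and less RNA per cell cannot be told apart.

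Psme2 shares 79.2% of its transcript, counted in stretches of 75 bases with up to 2 mismatches, with other genes, the copy Psme2b and the gene model Gm7928, and its counts are uncertain to that extent. Psme2b was at 8.43 and 8.66 CPM in Con and 7.13 and 4.44 CPM in Fat, a log2 fold change of -0.59 (SE 0.20, adjusted p = 0.124), and did not pass. It held 4.72 to 6.07% of the reads of the pair. Added together, Psme2 and Psme2b were at 176.3 and 160.2 CPM in Con and 117.4 and 94.0 CPM in Fat, so the groups did not overlap for the sum either. For Psme1 the shared part was 20.2%.

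The other caps and regulators gave values close between the media, and 0 of 3 were called, against 9.0% of all genes. Psme3, which forms a related cap found mainly in the nucleus, was at 88.2 and 85.6 CPM in Con and 91.9 and 92.6 CPM in Fat, a log2 fold change of 0.09 (SE 0.05, adjusted p = 0.376). Psme4 (PA200), a single-chain activator tied to histone turnover, was at 165.8 and 159.9 CPM in Con and 162.4 and 151.3 CPM in Fat (-0.05, adjusted p = 0.624). Psmf1 (PI31), which binds the core and inhibits it in vitro, was at 26.2 and 30.3 CPM in Con and 29.5 and 28.3 CPM in Fat (0.04, adjusted p = 0.846). Groups did not overlap for 1 of the 3, Psme3, with Fat above Con, against 55.6% of all genes.

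Activators can be set beside each other only per transcript length, in TPM, which divides by it before scaling. Of the summed TPM of Psme1, Psme2, Psme3 and Psme4, Psme1 made up 47.5 and 49.1% in Con and 47.6 and 47.2% in Fat. The share of Psme2 was 39.0 and 37.2% in Con and 34.1 and 32.2% in Fat, that of Psme3 7.66 and 7.83% against 10.6 and 12.4%, and that of Psme4 5.85 and 5.95% against 7.62 and 8.24%. The PA28 genes thus remained the most abundant activator transcripts in all 4 libraries. Shares add to a fixed total, so a share can move without its gene. For each of Psme2, Psme3 and Psme4 the shares did not overlap between the groups, and the exact permutation test of 2 against 2 libraries gave p = 0.33, the smallest it can give.

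**Figure D2:**
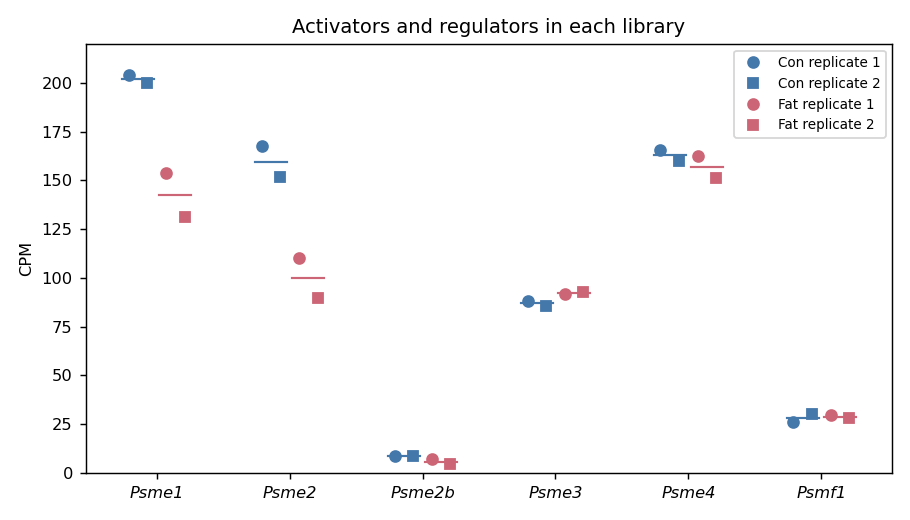
CPM in each library (points) and group mean (lines) for the activators, the copy Psme2b and the other regulators, Con and Fat side by side. Psme1 is lower in both Fat libraries (131.3 and 154.0 CPM) than in Con (199.97 and 204.1 CPM), and so is Psme2 (89.5 and 110.3 against 151.5 and 167.8 CPM), while the Con and Fat means of Psme3, Psme4 and Psmf1 lie close together.

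Of the 14 core subunits 0 were called, against 9.0% of all genes. An unadjusted p under 0.05 was found for 3 (Psma3 higher, Psma4 and Psma5 lower), against 24.1% of all genes. On the reads recovered from CPM, edgeR and DESeq2 called 0. Log2 fold changes ran from -0.16 to 0.29 with a median of -0.02, and the 95% intervals of all 14 lay between -0.29 and 0.51. Groups did not overlap for 7 of the 14 (50%), 2 higher and 5 lower in Fat, against 55.6% of all genes. Psma3, an outer-ring subunit, was at 14.6 and 13.1 CPM in Con and 16.4 and 17.5 CPM in Fat, a log2 fold change of 0.29 (SE 0.09, adjusted p = 0.0965). Both its Fat values were above both Con values, and 24.9% of its transcript is shared with 24 other genes. Psma4 was at 98.6 and 97.1 CPM in Con and 87.8 and 88.3 CPM in Fat (-0.15, adjusted p = 0.122). Psma5 was at 58.8 and 56.5 CPM in Con and 52.3 and 50.9 CPM in Fat (-0.16, adjusted p = 0.145). These 2 alpha subunits were lower in both Fat libraries without passing, and they share 54.8% and 73.0% of their transcripts with other genes. Psma6 overlapped between the media, at 138.6 and 134.3 CPM in Con and 143.9 and 132.3 CPM in Fat (0.02).

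Among beta subunits, the 3 that carry the active sites lay close to 0 in log2 fold change. Psmb5, the chymotrypsin-like site, was at 72.9 and 81.3 CPM in Con and 79.8 and 83.7 CPM in Fat, a log2 fold change of 0.09 (95% interval -0.07 to 0.25, adjusted p = 0.499), and 86.7% of its transcript is shared with other genes. Psmb6, the caspase-like site, was at 179.5 and 197.0 CPM in Con and 188.2 and 188.9 CPM in Fat (0.0037, 95% interval -0.14 to 0.15, adjusted p = 0.981). Psmb7, the trypsin-like site, was at 80.0 and 85.6 CPM in Con and 83.9 and 82.8 CPM in Fat (0.01, 95% interval -0.13 to 0.15, adjusted p = 0.948). All 3 overlapped between the groups, while 55.6% of all genes did not overlap. The intervals of these 3 lie above the log2 fold changes of Psme1 and Psme2. Of the structural subunits, Psmb3 had the highest and Psmb2 the lowest log2 fold change. Psmb3 was at 42.3 and 42.5 CPM in Con and 44.7 and 44.5 CPM in Fat (0.07), and Psmb2 at 90.6 and 91.5 CPM in Con and 86.9 and 83.2 CPM in Fat (-0.10). Psmb1 was at 128.4 and 132.7 CPM in Con and 126.5 and 123.0 CPM in Fat (-0.07). None of the beta subunits was called by limma, edgeR or DESeq2.

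Of the 17 base and lid subunits 0 were called, against 9.0% of all genes. An unadjusted p under 0.05 was found for 1 (Psmd11), against 24.1% of all genes, and edgeR and DESeq2 called 0. The median log2 fold change was 0.02, the range -0.10 to 0.19, and all 95% intervals lay between -0.22 and 0.34. Groups did not overlap for 7 (41.2%), 5 higher and 2 lower in Fat, against 55.6% of all genes. In the base, the ubiquitin receptor Psmd4 was at 80.3 and 83.4 CPM in Con and 85.1 and 88.2 CPM in Fat (0.08), and the scaffold Psmd1 at 197.7 and 213.9 CPM in Con and 213.2 and 218.9 CPM in Fat (0.07). The ATPase Psmc3 was at 147.5 and 148.9 CPM in Con and 142.0 and 135.5 CPM in Fat (-0.10, adjusted p = 0.33), and the ATPase Psmc1 at 115.7 and 114.9 CPM in Con and 112.7 and 110.9 CPM in Fat (-0.04). Both Fat libraries were above both Con libraries for Psmd4 and below them for Psmc3 and Psmc1, by amounts that did not pass, and the groups overlapped for Psmd1.

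In the lid, Psmd11, a subunit that bridges the regulatory and core particles, was at 55.1 and 59.9 CPM in Con and 67.5 and 63.4 CPM in Fat, a log2 fold change of 0.19 (SE 0.07, 95% interval 0.03 to 0.34, adjusted p = 0.137). Its groups did not overlap, and 42.3% of its transcript is shared with 2 other genes. Psmd6 was at 72.1 and 72.4 CPM in Con and 75.6 and 79.7 CPM in Fat (0.10). Psmd8 was at 203.3 and 225.6 CPM in Con and 201.2 and 207.3 CPM in Fat (-0.07), and Psmd13 at 99.0 and 104.2 CPM in Con and 101.9 and 97.0 CPM in Fat (-0.03). Groups overlapped for Psmd8 and Psmd13 and were apart for Psmd6. Over core, base and lid together, 30 of 31 subunits (96.8%) lay within 0.2 of 0 on the log2 scale, against 69.3% of all genes. The exception was Psma3. The SE was 0.05 to 0.09 for these 31 and 0.05 to 0.94 for all genes. The share over all genes thus includes noisier genes, and no set matched for level was compared.

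The subunits of the core, which enter the particle in equal number, differed in measured transcript level. Their mean TPM over the 4 libraries was highest for Psmb6 at 398.4 (range 379.2 to 408.0), followed by Psma2 at 303.1 and Psma6 at 301.7, whose ranges overlapped. It was lowest for Psma3 at 23.8 (19.7 to 27.3), with Psma5 next at 98.3, so that the highest was 16.8-fold over the lowest and 4.05-fold over the next lowest. In the regulatory particle Psmd8 was highest at 303.0 TPM, then Psmd2 at 200.3 and Psmc3 at 192.2, whose ranges overlapped, and Psmd11 was lowest at 77.3 TPM, a range of 3.92-fold. The lowest of the base was Psmc4 at 127.0 TPM. Levels are uncertain where a transcript shares sequence with other genes. That part was 24.9% for Psma3, 73.0% for Psma5, 78.4% for Psmb3 and 42.3% for Psmd11. Of the high subunits it was 10.3% for Psmb6, 55.7% for Psmd2 and 1.02% for Psmd8. Moves of more than 1 place in this order were few between the media. In the core 9 of 14 subunits held the same rank in Con and Fat and 1 moved more than 1 place, Psma4 from 8 to 10. In the regulatory particle 8 of 17 held their rank and 1 moved more than 1 place, Psmd13 from 10 to 12. The geometric mean of the 14 core subunits was 183.6 and 181.3 TPM in Con and 185.0 and 185.4 TPM in Fat, and that of the 17 regulatory subunits was 140.7 and 142.9 TPM in Con and 148.6 and 146.0 TPM in Fat.

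**Figure D3:**
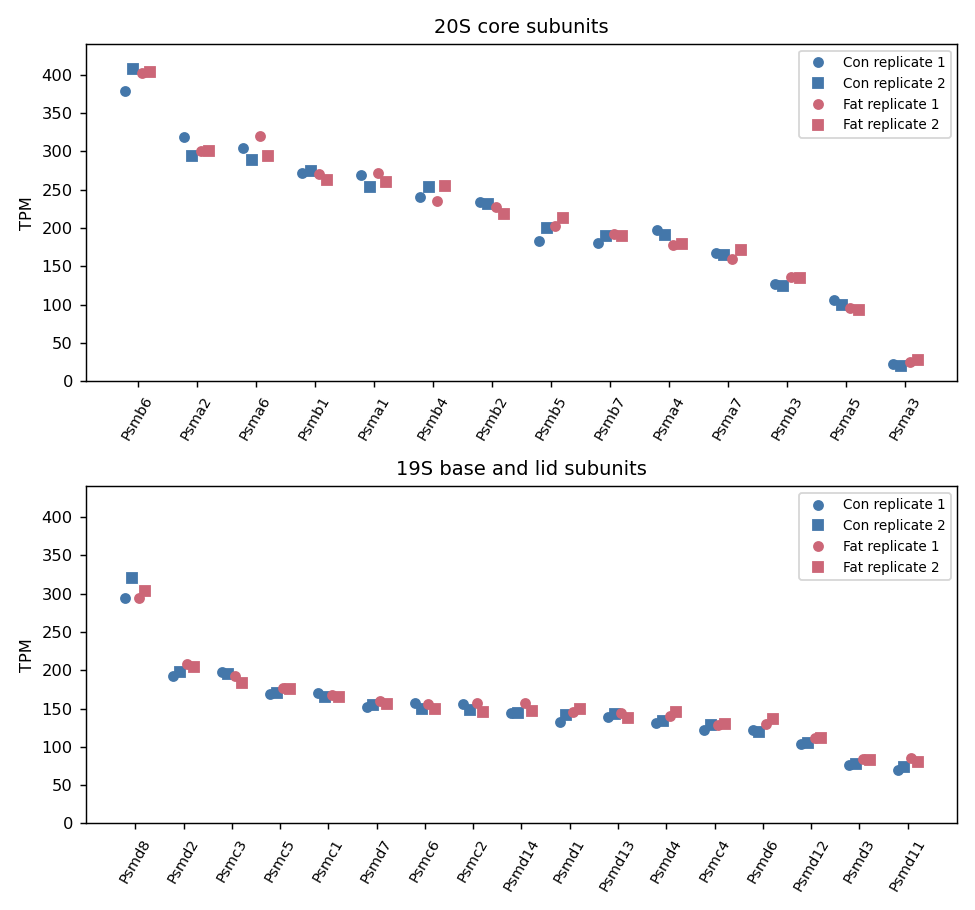
TPM (linear axis from 0) for each core subunit, upper panel, and each base or lid subunit, lower panel, ordered by mean level, with a point for every library. Psmb6 is highest of the core at 398.4 TPM and Psma3 lowest at 23.8 TPM, and the Con and Fat points of a subunit lie close together beside the differences between subunits.

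Set against the core within each library, which removes library scaling, Psme1 was 2.49 and 2.42 times the core's geometric mean TPM in Con and 1.89 and 1.605 times in Fat. Psme2 was 2.05 and 1.84 times the core in Con and 1.35 and 1.09 times in Fat. Both ratios were lower in both Fat libraries, by -0.50 for Psme1 and -0.67 for Psme2 on the log2 scale (exact permutation p = 0.33 each, the smallest that 2 against 2 libraries allow).

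The inducible catalytic subunits, which the rule left out, were each called lower in Fat. Psmb8 was at 247.4 and 241.1 CPM in Con and 171.5 and 154.1 CPM in Fat (log2 fold change -0.59, SE 0.07, adjusted p = 0.0044). Psmb9 was at 81.4 and 78.3 CPM in Con and 55.4 and 44.2 CPM in Fat (-0.69, SE 0.10, adjusted p = 0.00922). Psmb10 was at 164.2 and 173.2 CPM in Con and 110.2 and 98.6 CPM in Fat (-0.69, SE 0.07, adjusted p = 0.00347). None of the 3 was called without the variance trend (adjusted p = 0.0831, 0.102 and 0.0831). The ratio of each to its constitutive counterpart shows this within a library. In TPM, Psmb8 made up 70.7 and 67.9% of Psmb8 plus Psmb5 in Con and 60.5 and 56.7% in Fat. Psmb9 made up 36.8 and 33.8% of its pair with Psmb6 in Con and 27.4 and 23.1% in Fat, and Psmb10 made up 61.0 and 60.7% of its pair with Psmb7 in Con and 50.1 and 47.6% in Fat. For each pair both Fat libraries were below both Con libraries, and the log2 ratio differed by -0.67, -0.69 and -0.70 in that order (exact permutation p = 0.33 each). The summed TPM of the 3 constitutive catalytic genes was 743.0 and 797.9 in Con and 797.4 and 805.9 in Fat, which overlap, while that of the 3 inducible genes was 946.4 and 924.3 in Con and 655.3 and 572.6 in Fat. Inducible genes thus held 54.8 ± 1.66% of the catalytic TPM in Con and 43.3 ± 2.53% in Fat (SD, n = 2 each). Psmb5, Psmb6 and Psmb7 share 86.7%, 10.3% and 24.8% of their transcripts with other genes. For Psmb8, Psmb9 and Psmb10 the shared parts were 3.86%, 10.9% and 0%. The height of each inducible share is uncertain to that extent.

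**Figure D4:**
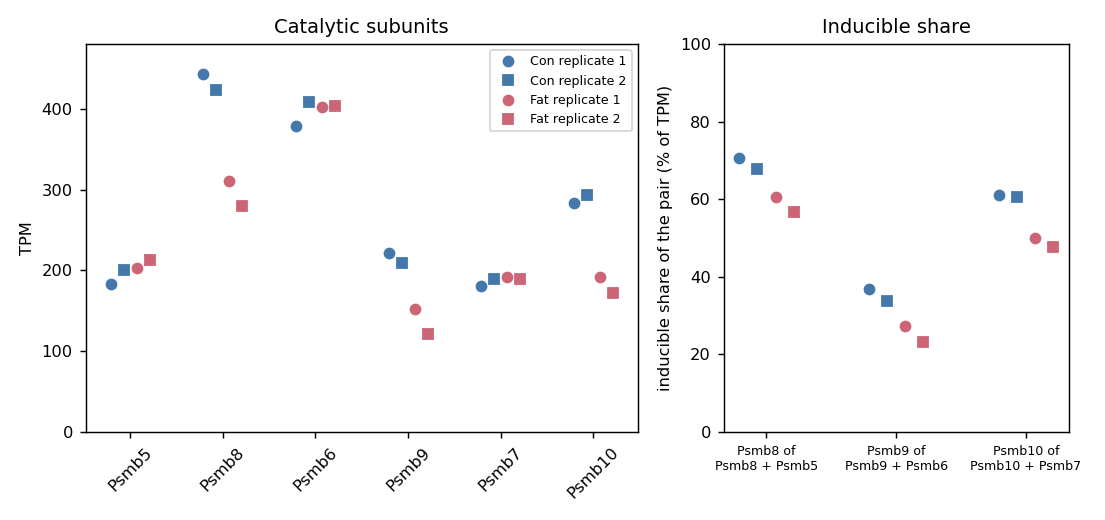
TPM of each constitutive catalytic gene beside its inducible counterpart (left panel) and the inducible share of each pair in percent of TPM (right panel), with a point for every library. All 3 shares are lower in both Fat libraries, from 70.7 and 67.9% to 60.5 and 56.7% for Psmb8 with Psmb5.

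Of the 7 assembly chaperones 0 were called, against 9.0% of all genes, and the median log2 fold change was -0.06. Psmd10 (gankyrin), which helps to assemble the base, was at 29.7 and 28.4 CPM in Con and 23.4 and 26.0 CPM in Fat (-0.23, SE 0.08, adjusted p = 0.115). The core chaperone gene Psmg3 was at 11.2 and 13.3 CPM in Con and 11.1 and 10.98 CPM in Fat (-0.14). Both were lower in the Fat libraries without passing. The base chaperones Psmd5 and Psmd9 were at 61.5 and 59.6 against 63.1 and 62.1 CPM (0.05) and at 24.6 and 27.1 against 25.8 and 26.0 CPM (0.0047), Con first. Psmg1 was at 9.67 and 8.21 CPM in Con and 8.09 and 9.88 CPM in Fat (0.0047), and it had the lowest TPM of the chaperones at 19.9, against 66.1 for Psmd5. Psma8, an alpha subunit known from testis, was at 2.15 and 2.43 CPM in Con and 2.30 and 2.90 CPM in Fat (0.17). Psmc3ip, a meiotic recombination gene that shares only the name, was at 2.03 and 1.92 CPM in Con and 1.74 and 1.32 CPM in Fat (-0.36, adjusted p = 0.338).

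Partners outside the rule were looked up from a list of 31 genes for proteasome assembly, transcription, ubiquitin supply and substrate delivery, of which 30 were found and tested. Of these 3 were called higher in Fat and 0 lower (9.0% of all genes were called), with a median log2 fold change of 0.05. AI314180, the older symbol of Ecpas, which encodes a scaffold that holds base and core together, was at 152.5 and 155.4 CPM in Con and 197.1 and 186.4 CPM in Fat (0.32, SE 0.06, adjusted p = 0.0163). Rps27a, a fusion of ubiquitin with a ribosomal protein, was at 2.24 and 2.32 CPM in Con and 3.67 and 3.61 CPM in Fat (0.65, SE 0.15, adjusted p = 0.0359). Usp14, a deubiquitinase bound to the base, was at 99.6 and 100.4 CPM in Con and 116.0 and 115.0 CPM in Fat (0.21, SE 0.05, adjusted p = 0.0481). For all 3 both Fat libraries were above both Con libraries. The call of AI314180 was lost without Fat replicate 1 (adjusted p = 0.0594), and those of Rps27a and Usp14 were lost without any 1 of the 4 libraries (adjusted p = 0.0736 to 0.129 and 0.0925 to 0.19). Usp14 was called in 4 of 14 alternatives. Rps27a was not called by DESeq2 (adjusted p = 0.134). It shares 68.8% of its transcript with 23 other genes, and Usp14 shares 45.1% with 1. For AI314180 the shared part was not counted.

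The partners named for their roles were not called. Pomp, the core maturation factor, was at 199.7 and 206.6 CPM in Con and 180.8 and 169.6 CPM in Fat (-0.21, SE 0.06, adjusted p = 0.0634). Adrm1, a ubiquitin receptor of the base, was at 7.75 and 8.64 CPM in Con and 8.92 and 12.03 CPM in Fat (0.34, SE 0.15, adjusted p = 0.225), and it shares 88.1% of its transcript with 1 other gene. Nfe2l1, which encodes the transcription factor that raises proteasome genes when the protease is blocked, was at 206.7 and 213.6 CPM in Con and 200.1 and 201.9 CPM in Fat (-0.06, adjusted p = 0.51). Pomp and Nfe2l1 were lower and Adrm1 higher in both Fat libraries. Shfm1, the older symbol of the lid subunit Sem1, was at 119.2 and 114.9 CPM in Con and 116.5 and 121.2 CPM in Fat (0.02), which overlap.

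**Figure D5:**
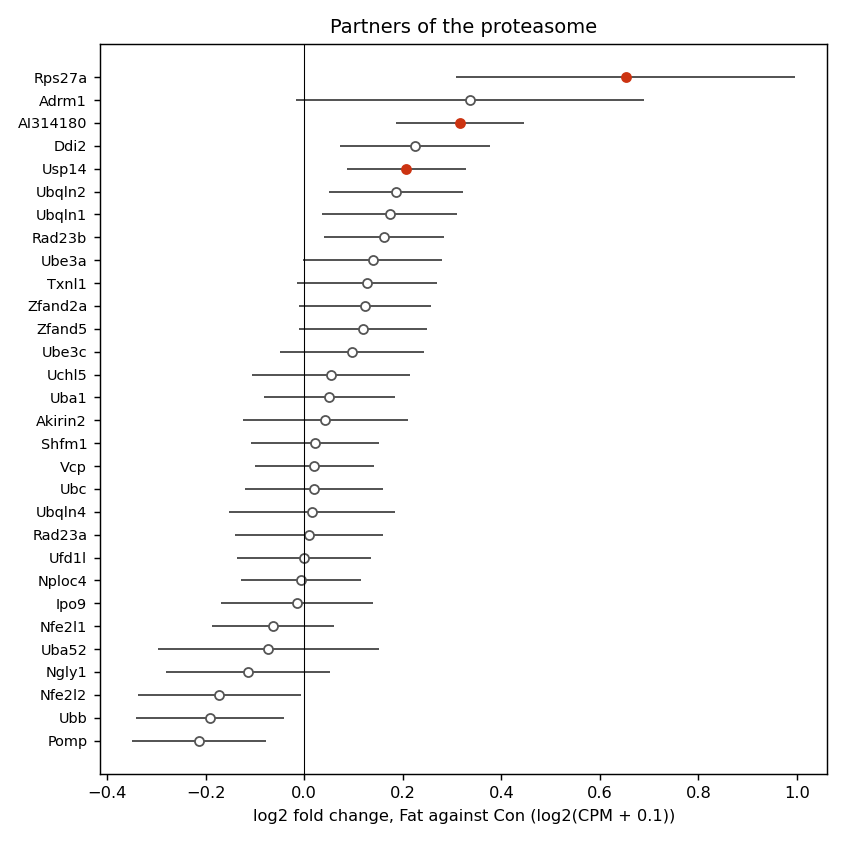
Log2 fold change of Fat against Con (x axis, on log2(CPM + 0.1)) with 95% confidence intervals from limma for the 30 partner genes. Filled points mark the 3 genes called at an adjusted p under 0.05, Rps27a at 0.65, AI314180 at 0.32 and Usp14 at 0.21, and Pomp is lowest at -0.21 and not called.

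Markers of the labelled cell type and of other cells were read in the same libraries. Of the 7 macrophage markers analysed, 2 were called lower (Mertk and Fcgr1), against 5.0% of all genes. The 7 summed to 34911 and 32927 CPM in Con and 27581 and 26024 CPM in Fat. Most of that sum was Lyz2, which was not called (28720.5 and 26819 CPM in Con, 21516 and 20347 CPM in Fat, limma adjusted p = 0.209), and the other 6 summed to 6191 and 6109 CPM in Con and 6065 and 5677 CPM in Fat. Of 8 adipocyte markers, Fabp4 and Lpl, which macrophages also express, made up nearly all the level (8 markers summed to 7395 and 8600 CPM in Con and 8795 and 8905 CPM in Fat). Only 3 of the 8 passed the filter and were tested (Cidec, Fabp4 and Lpl). Of these 3, Cidec was called higher, against 3.99% of all genes. The 6 markers other than Fabp4 and Lpl summed to 5 and 6 reads in Con and 152 and 99 reads in Fat. Among them, Adipoq was at 0 reads in both Con libraries and at 28 and 14 in Fat. Of the 4 neutrophil, 5 lymphocyte and 2 endothelial markers tested 0 were called, against 9.0% of all genes. Of 5 stromal markers Dcn was called lower. The summed neutrophil level was 248 to 283 CPM in Con and 244 to 250 CPM in Fat, the lymphocyte level 18.2 to 19.5 against 15.1 to 16.4 CPM, the stromal level 614 to 638 against 512 to 656 CPM and the endothelial level 4.56 to 6.28 against 6.78 to 7.51 CPM. The part of these markers in the lower Psme1 and Psme2 was not tested.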

How the data were processed

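Poly(A) RNA of the 4 libraries was prepared with a stranded mRNA kit and sequenced. The authors deposited CPM and TPM tables of 17013 genes, and the submitters' processing notes name build GRCm39. The aligner, counter and annotation are not given in the sources used here. The deposited CPM were scaled by TMM factors between 0.99 and 1.01, and whole reads were recovered from 100% of values (tolerance 0.01 reads). The deposited TPM were used only to compare genes and for 1 alternative.

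Genes at 0.5 CPM or more in 2 or more of the 4 libraries were tested by limma 3.58.1 (trend) on log2(CPM + 0.1) in R 4.3.3, and the design held no covariate. Such a pseudocount understates changes of low genes. The code was tested on simulated data. Shared transcript sequence was counted with BWA 0.7.19 on a principal transcript per gene. Ratios were compared by two-sided exact permutation tests.

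Members and lists were chosen with earlier results of these data known. Named genes were the regulators, the catalytic subunits, every member called, per role group the 2 highest and 2 lowest fold changes and the highest and lowest mean TPM, and, of the partners, Pomp, Adrm1, Sem1, Nfe2l1 and up to 4 called in each direction. Alternatives were another pseudocount, filter, unit or scaling, no trend, a replicate block, edgeR 4.0.16, DESeq2 1.42.0 and leaving out each library.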

Additional observations from a re-analysis of the deposited data

How the results depend on the processing

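No called member, inducible subunit or partner changed direction under any alternative. The called cell type markers and Tap1 were not followed through the alternatives. The count of members called was 6 with the replicate block and 0 without a variance trend, and 2 to 3 when 1 library was left out, the third being Psme2b without Fat replicate 1. The members' median log2 fold change was 0.031 on TPM, -0.00996 with CPM rescaled by median ratios, -0.0105 with DESeq2, and -0.0259 to 0.0059 when 1 library was left out. The block added 1 call among core subunits (Psma3), 1 among base and lid subunits (Psmd11), and those of Psme2b and Psmd10 (adjusted p = 0.0015 and 0.022). Without a variance trend 0 of the PA28 activators were called. Partners called numbered 1 without the filter, 11 with the block, 0 without a trend, 1 with DESeq2 and 1 to 2 when 1 library was left out, the lowest count being reached without Con replicate 1, Fat replicate 1 or Fat replicate 2. Same-numbered libraries shared only a number in the labels (correlation of their deviations 0.20 over 12470 genes), and over all genes the block called 2520 (20.2%), against 1122 without it, and the fit without a trend 31. Leaving out members that share over 20% of their sequence, an alternative chosen after seeing the data, gave medians of -0.04 over 8 core and 0.01 over 14 base and lid subunits. When a library was left out, the lone library of its group was assumed to vary like the other group. The intervals cover the spread between 2 libraries a group only.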

Other observations

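In the RefSeq gene order of GRCm38.p6, Psme1 and Psme2 stand on chromosome 14 with Emc9 between them and Rnf31 and Irf9 next. Emc9, a subunit of the membrane protein insertase of the endoplasmic reticulum, was at 4.01 and 4.42 CPM in Con and 4.02 and 6.71 CPM in Fat (log2 fold change 0.30, SE 0.23, limma adjusted p = 0.48), which overlap. Rnf31, a ubiquitin ligase of the linear chain complex, was at 37.7 and 36.8 CPM in Con and 34.5 and 28.4 CPM in Fat (-0.25, SE 0.10, adjusted p = 0.16), apart but not called. Irf9, the DNA-binding part of the interferon-stimulated factor, was at 70.2 and 63.0 CPM in Con and 64.4 and 50.1 CPM in Fat (-0.23, SE 0.12, adjusted p = 0.284), which overlap. On chromosome 17, Tap1, the peptide transporter gene between Psmb9 and Psmb8, was at 154.9 and 143.0 CPM in Con and 101.9 and 78.5 CPM in Fat, and was called lower (-0.73, SE 0.11, adjusted p = 0.0115). These neighbours were chosen after the values of the members were seen.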
